A study of Mus musculus with 14 samples.

Results

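The 9 genes C3, C4b, C1ra, C1s1, Cfb, Cfi, Serping1, Cd55 and Cd59a, which encode complement components and their regulators, were followed across 14 clones of cultured mouse bone marrow stromal cells. The members are given by gene symbol, and all 9 were found among the 30503 genes of the count table. Of the 9 genes, 7 had enough reads to be tested; Cfi and Serping1 did not, with 13 and 74 counts over all 14 clones.

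Each library was bulk RNA-seq of a clone that had been grown from 1 tdTomato+ cell of femur bone marrow and passaged in culture. All mice carried Fgfr3-creER, a tamoxifen-inducible Cre driven by the Fgfr3 gene, and 1 copy of the R26R-tdTomato reporter, and received tamoxifen at postnatal day 21. The 5 Fgfr3-WT clones (P23) came from mice of day 23, carried no floxed Trp53 allele and were sequenced at passage 8. The 5 Fgfr3-p53 cKO clones (P28) came from mice of day 28 that also carried 2 floxed Trp53 alleles (Trp53fl/fl), and were sequenced at passage 8. The 4 Fgfr3-p53 cKO clones (P4M) had the same genotype as the P28 clones, came from 4-month-old mice and were sequenced between passage 6 and passage 8. Sample names in the labels start with 1303 for all WT clones and with 2963 for all cKO clones. Genotype, age at isolation, time in culture, survival of passaging and whatever this number marks cannot be told apart in either comparison with WT. The paper reports that cKO clones grew faster than WT clones and more often survived serial passage. The same passage therefore does not mean the same time in culture, which the labels do not give. In both comparisons of P4M, passage may differ as well, as the passage of each P4M clone is not given. The labels do not say which clones shared a mouse, so every p-value measures the spread between clones. Clones are numbered within a group only to name them.

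Complement is a cascade of plasma proteases and binding proteins that tags surfaces and recruits immune cells. In the classical pathway, the proteases C1r and C1s sit on C1q and cleave C4 and C2 to form an enzyme that splits C3, the protein on which all pathways converge; factor B forms the corresponding enzyme of the alternative pathway. Most plasma complement is made in the liver, but fibroblasts and other mesenchymal cells also secrete several components, and nearly every cell carries membrane regulators such as CD55 and CD59 that protect it from attack.

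Trp53, the gene to be deleted, was the check of the labels. It lay between 49.9 and 68.2 CPM (normalised counts-per-million, scaled by the trimmed mean of M-values) in the WT clones and between 1.72 and 2.85 CPM in the 9 cKO clones, and its log2 fold change was -4.48 in P28 and -4.71 in P4M against WT (adjusted p = 2.14e-09 and 4.62e-09, edgeR quasi-likelihood test with Benjamini-Hochberg adjustment over 17358 genes, the test behind every adjusted p below). Library totals ran from 25688946 to 52857424 counts, lower in the WT clones (median 27447973) than in the P28 clones (45728793) and the P4M clones (48642222). All 8 skeletal stromal markers had enough reads to be tested. Their summed level was 1510 to 11400 TPM (transcripts-per-million, a level per transcript length) over the clones. The summed level of 6 endothelial markers stayed between 0.03 and 3.26 TPM and that of 5 hepatocyte markers between 0 and 3.89 TPM.

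C1ra and C1s1 lie in opposite directions within a cluster of 5 related protease genes on chromosome 6. Since they carried most of the signal, the promoter windows of C1ra, its paralog C1rb and C1s1 are shown together with that of C3, whose product stands at the centre of the cascade. The windows run from 250 bases before to 50 bases after the RefSeq start (build GRCm38.p6) and are printed 5′ to 3′ on the strand of the gene. In C1ra (chr6:124512371-124512670, plus strand) and C1rb (chr6:124570180-124570479, plus strand), capitals mark the longest run shared by both, 34 bases. In C1s1 (chr6:124542310-124542609, minus strand) and C3 (chr17:57228087-57228386, minus strand), capitals mark the 8 bases that match the C/EBP letters TTGCNNAA on either strand.
C1ra: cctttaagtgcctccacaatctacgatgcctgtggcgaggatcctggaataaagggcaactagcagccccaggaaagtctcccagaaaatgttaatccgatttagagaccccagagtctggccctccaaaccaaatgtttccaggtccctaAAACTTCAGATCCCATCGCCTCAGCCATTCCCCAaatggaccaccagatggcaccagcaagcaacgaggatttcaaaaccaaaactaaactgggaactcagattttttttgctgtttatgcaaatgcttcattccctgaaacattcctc
C1rb: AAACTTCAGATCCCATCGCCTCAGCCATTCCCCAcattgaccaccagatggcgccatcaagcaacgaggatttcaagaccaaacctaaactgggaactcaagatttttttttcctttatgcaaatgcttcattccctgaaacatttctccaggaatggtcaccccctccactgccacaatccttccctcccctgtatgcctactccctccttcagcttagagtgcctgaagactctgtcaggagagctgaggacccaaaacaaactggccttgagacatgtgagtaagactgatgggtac
C1s1: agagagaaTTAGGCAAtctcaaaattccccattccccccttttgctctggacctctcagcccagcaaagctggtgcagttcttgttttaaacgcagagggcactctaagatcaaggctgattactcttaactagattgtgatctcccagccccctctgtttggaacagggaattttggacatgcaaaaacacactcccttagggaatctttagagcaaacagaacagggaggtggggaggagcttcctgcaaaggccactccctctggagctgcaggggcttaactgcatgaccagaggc
C3: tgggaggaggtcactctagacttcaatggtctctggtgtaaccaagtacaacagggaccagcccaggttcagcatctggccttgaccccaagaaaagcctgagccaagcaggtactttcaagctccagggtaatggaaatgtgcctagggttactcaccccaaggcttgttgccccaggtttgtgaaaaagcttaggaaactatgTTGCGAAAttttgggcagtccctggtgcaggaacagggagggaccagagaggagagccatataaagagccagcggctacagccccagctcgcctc

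The C1ra and C1rb windows aligned over 150 columns, of which 139 (92.7%) were identical. RefSeq promoter windows were found for 5 of the 9 genes, Cd55, Cd59a, C1ra, C1s1 (with 2 windows) and C3. On both strands, the C/EBP letters occurred in C1ra, in the printed window of C1s1 and in C3, against 10.8% of all 32851 windows in the table. The STAT letters TTCNNNGAA occurred in C1ra alone of the 5 genes (8.3% of all windows) and the interferon-stimulated response element in Cd59a alone (3.44%). Neither the NF-kappaB consensus (4.51% of all windows) nor the p53 half-site consensus (8.36%) occurred in the windows of the 5 genes. The C1rb window, too, held 1 match to the C/EBP letters and 1 to the STAT letters. The C/EBP and STAT matches of C1ra did not overlap. A match is a stretch of letters, not a bound site.

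By median level per transcript length, the classical pathway proteases led the 9 genes in every group. In the WT clones the median level was 300.8 TPM for C1s1 and 253 TPM for C1ra, then 17.2 TPM for Cd59a, 5.76 TPM for C4b, 2.72 TPM for C3, 1.11 TPM for Cd55 and 0.15 TPM for Cfb, with Serping1 and Cfi at 0. The ranges of C1s1 (290.7 to 899.6 TPM) and C1ra (169.3 to 629.3 TPM) overlapped each other and lay above those of all other members, whereas from Cd59a (1.76 to 31.6 TPM) down to Cd55 (0.39 to 45.97 TPM) each gene overlapped the next. In P28, C1ra (median 97.3 TPM) stood ahead of C1s1 (74.8 TPM) and Cd59a (38.8 TPM), with overlapping ranges, and the remaining members had medians of at most 0.78 TPM. In P4M the order of the leading genes was the same at lower levels, 24.4 TPM for C1ra, 8.62 TPM for C1s1 and 2.44 TPM for Cd59a. Of these, the ranges of C1ra (23.52 to 60.3 TPM) and C1s1 (7.53 to 23.47 TPM) came close without overlap, and the range of Cd59a (0.92 to 9.58 TPM) overlapped that of C1s1. The range of C4b (0.35 to 11.48 TPM) overlapped that of C1s1 as well. In P4M clone 4, C4b (11.48 TPM) was above both Cd59a (9.58 TPM) and C1s1 (7.56 TPM). The 9 genes together summed to 480 to 1638 TPM in the WT clones, 118.3 to 280.7 TPM in P28 and 34.7 to 88.4 TPM in P4M, and C1ra plus C1s1 made up 85% to 99.2%, 68.7% to 89.9% and 59.6% to 94.7% of those sums.

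**Figure D1:**
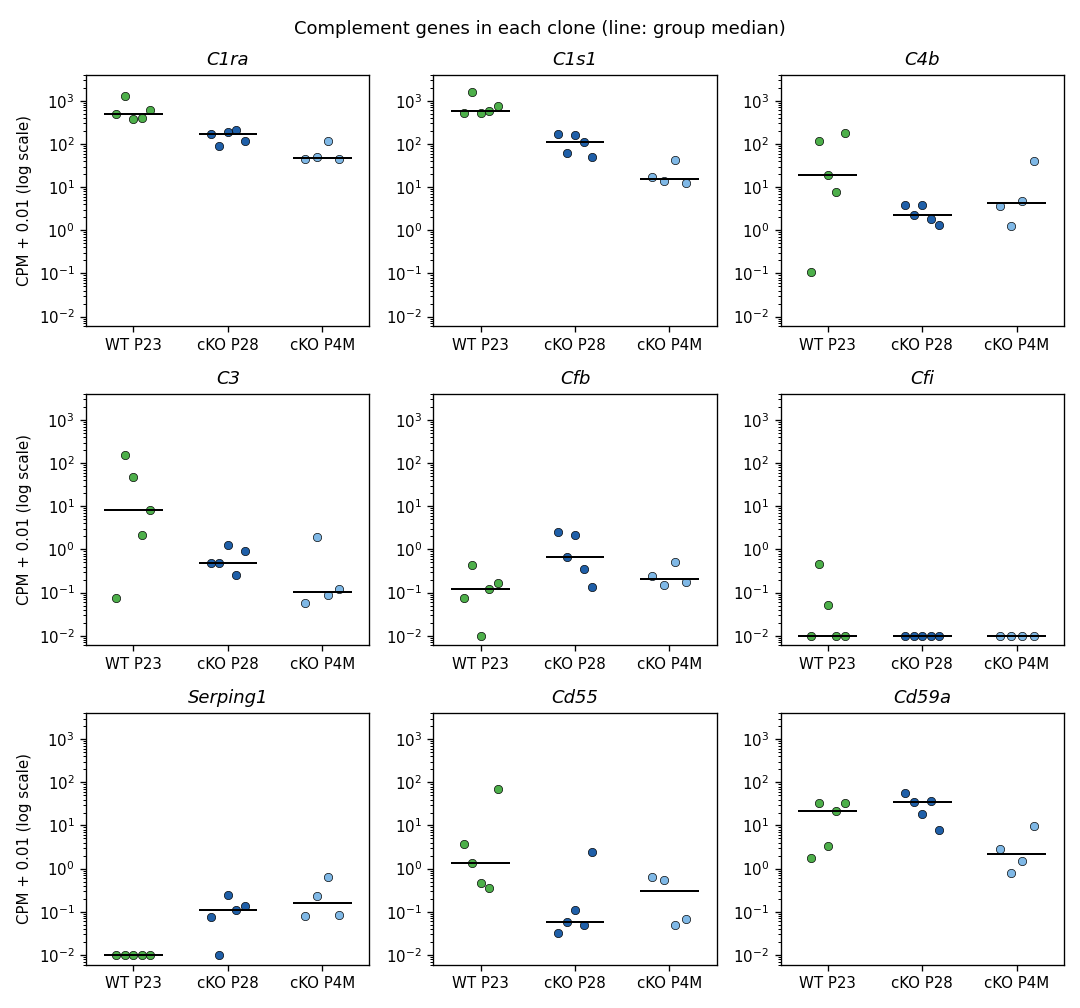
Normalised read counts (CPM plus 0.01, log axis) of the 9 complement genes in each of the 14 clones, 1 panel per gene, with green points for WT P23, dark blue for cKO P28 and light blue for cKO P4M; each point is a clone and each line a group median. C1ra and C1s1 step down from WT to P28 to P4M with the WT points above all cKO points, whereas the WT points of C3, C4b and Cd55 spread over several powers of 10.

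The count of changed genes is read against the whole transcriptome, in which many genes differed. In P28 against WT, 5 of the 7 members tested fell (C1ra, C1s1, C4b, C3 and Cd55) and 1 rose (Cfb), beside 38.9% of all genes tested that changed, 19.7% lower and 19.2% higher. In P4M against WT, 4 of 7 fell (C1ra, C1s1, C3 and Cd55), beside 45.9% of all genes, 23.6% lower and 22.3% higher; the other 3 members had log2 fold changes of -2.33 for C4b, -2.33 for Cd59a and 0.79 for Cfb. In P4M against P28, 1 of 7 fell (C1s1), beside 7.22% of all genes (1254 calls, or 480 to 2132 with 1 clone left out), 3.88% lower and 3.34% higher. The median log2 fold change of the 7 members was -2.83, -3.31 and -1.28 in these comparisons, beside -0.02, -0.06 and -0.01 over all genes tested. Both comparisons with WT use the same 5 WT clones and so share their error.

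**Figure D2:**
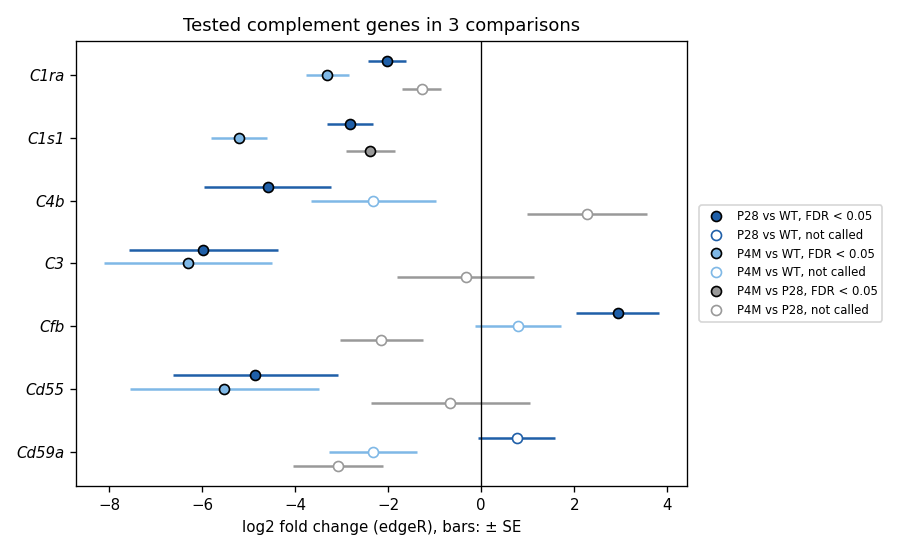
Log2 fold change (x axis, edgeR, bars ± SE) of the 7 tested members in P28 against WT (dark blue), P4M against WT (light blue) and P4M against P28 (grey); filled points passed a false discovery rate of 0.05. C1ra and C1s1 lie left of 0 in all 3 comparisons with SEs of 0.402 to 0.608, C3 and Cd55 lie further left in both comparisons with WT with SEs of 1.60 to 2.03, and Cfb in P28 against WT is the 1 filled point on the right.

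C1r and C1s, the paired proteases of the C1 complex, were the members whose groups separated fully from WT. C1ra (ENSMUSG00000055172, chr6:124512405-124523443 of mm10, plus strand) stood at 488.8, 1283, 387.3, 397 and 611.7 CPM in WT clones 1 to 5, at 166.7, 89.2, 186.2, 215.8 and 117.9 CPM in P28 clones 1 to 5, and at 44.9, 48.7, 116.4 and 45.8 CPM in P4M clones 1 to 4. Each WT clone was above each cKO clone, WT clone 2 was the highest of all, and P4M clone 3 lay within the P28 range. The means were 633.6 ± 374.3 (SD, n = 5), 155.2 ± 51.3 (n = 5) and 63.9 ± 35 (n = 4) CPM. C1ra fell in both cKO groups, with a log2 fold change of -2.03 (SE 0.402) in P28 and -3.31 (SE 0.463) in P4M, or 4.08-fold and 9.91-fold (adjusted p = 0.00178 and 0.000159, edgeR). Between P4M and P28 its log2 fold change was -1.28 (SE 0.423), with an edgeR adjusted p of 0.0797. This value passed the threshold when P4M clone 3 was left out (-1.74, adjusted p = 0.0394, edgeR) or when WT clone 2 was (-1.28, adjusted p = 0.0419, edgeR). It also passed with DESeq2, with edgeR on only these groups, with limma on TPM and without WT clones 2 and 5 in edgeR (adjusted p = 0.034, 0.0434, 0.0299 and 0.0391).

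C1s1 (ENSMUSG00000038521, chr6:124530345-124542359, minus strand) stood at 512.3, 1635, 513.3, 571 and 737.9 CPM in the WT clones, at 173.4, 60.8, 163.5, 111.3 and 50.6 CPM in P28, and at 16.9, 13.9, 42.2 and 12.7 CPM in P4M. The 3 groups did not overlap, with every WT clone above every P28 clone and every P28 clone above every P4M clone. The means were 793.9 ± 479.2, 112 ± 56.6 and 21.4 ± 14 CPM (SD, n = 5, 5 and 4). C1s1 fell in all 3 comparisons, by log2 fold changes of -2.83 (SE 0.493) in P28 against WT, -5.21 (SE 0.608) in P4M against WT and -2.38 (SE 0.528) in P4M against P28, that is 7.09-fold, 37-fold and 5.22-fold (adjusted p = 0.000825, 5.16e-05 and 0.0198, edgeR). The last of these missed the threshold in 5 of the 14 fits that left out a clone (P28 clones 1 or 3, P4M clones 1, 2 or 4), with edgeR adjusted p up to 0.067 and a log2 fold change between -2.94 and -2.15 over all 14. Of the 7 members tested, C1ra and C1s1 were the 2 with no overlap between groups in either comparison with WT, beside 24.5% of all genes in P28 and 33.6% in P4M; between P4M and P28 it was C1s1 alone, beside 19.0%.

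The 2 proteases did not fall by the same factor. The ratio of C1s1 to C1ra, both in TPM, was 1.18, 1.43, 1.55, 1.72 and 1.38 in the WT clones, 1.17, 0.761, 1.02, 0.573 and 0.482 in P28, and 0.412, 0.306, 0.389 and 0.313 in P4M. C1s1 was above C1ra in every WT clone and below it in every P4M clone, the P28 clones lay on both sides, and no 2 groups overlapped. The mean log2 ratio was 0.53, -0.40 and -1.51, a difference of -0.92 for P28 against WT (p = 0.00794), -2.03 for P4M against WT (p = 0.0159) and -1.11 for P4M against P28 (p = 0.0159), by exact two-sided permutation tests on 5, 5 and 4 clones. Each of these is the smallest p its design allows, each adjusted p over the 3 comparisons is 0.0159, and the ratio was picked after its values had been seen. Leaving out a clone at a time moved the differences only within -1.08 to -0.76, -2.11 to -1.96 and -1.27 to -0.95.

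The fall extended over the other genes of the cluster, which spans 143 kb on chromosome 6. C1rl, a C1r-like protease gene (chr6:124493113-124510643), stood at 62 to 153.9 CPM in WT, 16.6 to 48.1 CPM in P28 and 10.1 to 23.2 CPM in P4M, and fell against WT, with log2 fold changes of -1.81 and -2.89 (adjusted p = 0.000954 and 9.17e-05, edgeR). C1rb, the C1r paralog (chr6:124570294-124581171), had 232 to 800 counts in the WT clones and 1 to 9 counts in the 9 cKO clones, and fell by log2 values of -7.38 and -8.16 (adjusted p = 4.42e-06 and 6.41e-06, edgeR). C1s2, the C1s paralog (chr6:124624625-124636085), stood at 12.9 to 54.5 CPM in WT, 0.167 to 1.31 CPM in P28 and 0.182 to 0.573 CPM in P4M, and fell by log2 values of -5.30 and -6.59 (adjusted p = 7.87e-05 and 4.54e-05, edgeR). For all 3 genes every WT clone was above every cKO clone. Between P4M and P28 the log2 fold changes were -1.08 for C1rl, -0.78 for C1rb and -1.29 for C1s2, with edgeR adjusted p of 0.0692, 0.42 and 0.205.

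Relative to its paralog, C1rb fell further than C1ra: C1rb counts were 1.97% to 2.91% of C1ra counts in the WT clones, 0.0268% to 0.116% in P28 and 0.0467% to 0.154% in P4M. C1s2 counts were 2.52% to 4.47% of C1s1 counts in WT, 0.231% to 2.58% in P28 and 1.09% to 1.48% in P4M. These shares depend on how reads from near-identical stretches were counted. Of the 50-base windows of the longest C1ra transcript, 48.0% occur in C1rb as well, and 24.3% of those of C1s1 occur in C1s2. The 27 tested genes within 500 kb of C1ra and C1s1 that are not complement genes, a set defined after the values were seen, had a median log2 fold change of 0.04 in P28 and -0.04 in P4M against WT, with 10 lower and 4 higher in P28 and 10 lower and 3 higher in P4M. On the whole of chromosome 6, 885 genes had medians of -0.25 and -0.32, with 249 lower and 108 higher in P28 and 277 lower and 133 higher in P4M. Over all genes tested, 19.7% were lower and 19.2% higher in P28, and 23.6% were lower and 22.3% higher in P4M. The share called lower was thus smaller over all genes than in either set, a difference that was not tested.

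**Figure D3:**
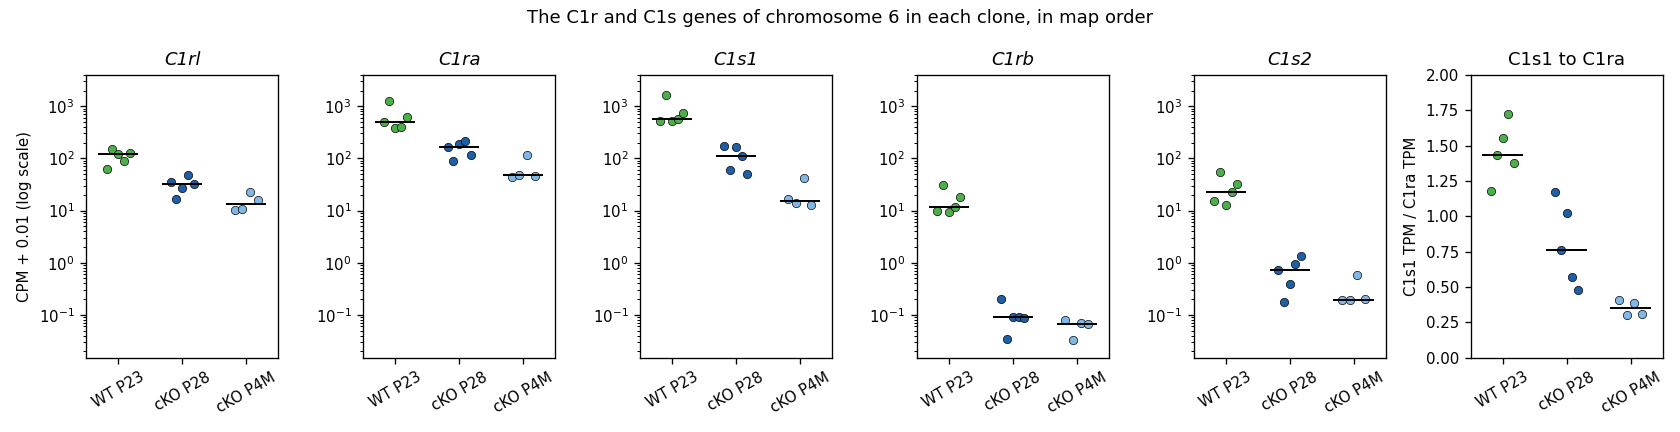
Normalised read counts (CPM plus 0.01, log axis) of C1rl, C1ra, C1s1, C1rb and C1s2 in map order in each of the 14 clones, and on the right the ratio of C1s1 to C1ra TPM (linear axis); points are clones, lines are group medians, and the 3 groups stand side by side in each panel. C1rb drops from 9.39 to 30.6 CPM in the WT clones to at most 0.194 CPM in the cKO clones, and the ratio drops from a median of 1.43 to 0.761 and 0.351.

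The summed levels of chondrocyte and osteoblast markers separated WT from both cKO groups, whereas the called reticular and blood-cell markers went both ways. The summed level of 6 chondrocyte markers was 494 to 6470 TPM in the WT clones, 66.3 to 471 TPM in P28 and 13.5 to 202 TPM in P4M, with 5 of 6 lower and 1 higher in P28 and 4 of 6 lower in P4M. The summed level of 6 osteoblast markers was 18.7 to 449 TPM in WT, 4100 to 7140 TPM in P28 and 3820 to 16700 TPM in P4M, with 3 and 5 of 6 higher. Reticular cell markers summed to 36.1 to 254, 285 to 453 and 93.9 to 308 TPM. Of the 5 reticular markers tested, 2 were higher and 1 lower in P28, and 1 was higher and 1 lower in P4M. Over all genes tested, 19.7% were lower and 19.2% higher in P28 against WT, and 23.6% were lower and 22.3% higher in P4M. Markers of macrophages and other blood cells, which also make complement, summed to 24 to 178 TPM in WT, 16.9 to 40.5 TPM in P28 and 21 to 35.9 TPM in P4M. Of those 10 genes, Tyrobp was the only 1 with no more than 3 counts in every clone. The 5 blood-cell genes tested had 1 higher and 2 lower in each comparison with WT. The part of these shifts in the complement values was not tested. In bulk libraries, fewer cells of a type and less RNA per cell cannot be told apart.

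C4 and C3 are cleaved in turn once C1s is active. Their genes were high in some WT clones and at 2 or 3 counts in WT clone 1. C4b (ENSMUSG00000073418, chr17:34728380-34743882, minus strand) stood at 0.0977, 114.2, 19, 7.85 and 174.8 CPM in the WT clones, at 3.79, 2.30, 3.78, 1.83 and 1.31 CPM in P28, and at 3.55, 1.25, 4.86 and 40.7 CPM in P4M. WT clones 2 and 5 were the highest and WT clone 1, with 3 counts, the lowest of all 14, so that WT overlapped both cKO groups. C4b fell in P28, with a log2 fold change of -4.6 (SE 1.38) against WT (adjusted p = 0.018, edgeR), and -4.96 to -3.76 with 1 clone left out at a time. With limma on TPM, C4b in P28 did not pass (-2.05, adjusted p = 0.0784, limma). In P4M it stood at -2.33 (SE 1.35) against WT and did not pass (adjusted p = 0.174, edgeR). That value was -4.28 without P4M clone 4 (adjusted p = 0.041, edgeR) and 0.49 without WT clones 2 and 5 (adjusted p = 0.781, edgeR), and the fall in P28 was -1.78 without these 2 WT clones (adjusted p = 0.259, edgeR). P4M and P28 differed by 2.27 (SE 1.29) on the same scale, with an edgeR adjusted p of 0.284.

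C3 (ENSMUSG00000024164, chr17:57203970-57228136, minus strand) stood at 0.0652, 154, 46.6, 2.19 and 8.03 CPM in the WT clones, at 0.473, 0.478, 1.23, 0.242 and 0.897 CPM in P28, and at 0.0461, 1.89, 0.079 and 0.113 CPM in P4M. WT clones 2 to 5 were above all cKO clones, while WT clone 1, with 2 counts, was among the lowest. C3 fell in both cKO groups, with log2 fold changes of -5.98 (SE 1.60) in P28 and -6.32 (SE 1.80) in P4M, or 63.2-fold and 79.7-fold (adjusted p = 0.0101 and 0.0119, edgeR), and both calls held in all 14 fits that left out a clone. Without WT clone 2 the log2 fold changes were -4.42 and -4.74, and without P4M clone 2 that of P4M was -8.97. P4M and P28 differed by -0.33 (SE 1.47) on the same scale, with an edgeR adjusted p of 0.914, and the sign turned in 4 of the 14 fits that left out a clone, with values up to 0.08.

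The WT clones differed far more in C3 and C4b than in C1ra and C1s1. The SD of log2 CPM over the 5 WT clones was 4.04 for C3 and 4.08 for C4b, at percentile 99.6 and 99.7 of the genes tested, against 0.709 for C1ra and 0.705 for C1s1, at percentile 66.4 and 66.1, with a median over all genes of 0.515. Cd55 (3.02) and Cd59a (1.96) stood between these. In P28 the SD of C3 was 0.832 and that of C4b 0.653, and in P4M they were 1.99 and 2.09, beside medians over all genes of 0.326 and 0.307. C4a, the C4b paralog with which it shares 35.2% of its 50-base windows, varied less: it stood at 1.98 to 8.21 CPM in WT, 0.98 to 2.02 CPM in P28 and 1.18 to 3.80 CPM in P4M, and fell by 1.56 on the log2 scale in P28 (adjusted p = 0.012, edgeR). In P4M its value was -0.89 (adjusted p = 0.127, edgeR).

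Factor B, the protease of the alternative pathway convertase, was the 1 member tested that rose. Cfb (ENSMUSG00000090231, chr17:34856374-34862518, minus strand) stood at 0.0652, 0.421, 0, 0.114 and 0.158 CPM in the WT clones, at 2.56, 0.669, 2.17, 0.343 and 0.128 CPM in P28, and at 0.231, 0.137, 0.514 and 0.169 CPM in P4M. P28 clones 1 and 3 were the highest, with 119 and 109 counts, and the other 2 groups overlapped throughout, at no more than 26 counts. Cfb rose by 2.94 (SE 0.896) on the log2 scale in P28 (adjusted p = 0.0196, edgeR), and the call was lost without P28 clone 1 (2.41, adjusted p = 0.0528, edgeR), and the value was highest without WT clone 2, at 3.74. The log2 fold change was 0.79 (SE 0.931) in P4M against WT and -2.15 (SE 0.901) in P4M against P28, with edgeR adjusted p of 0.511 and 0.153. Even at its highest Cfb reached 2.05 TPM, below every value of C1ra and C1s1. C2, the classical pathway counterpart of factor B and its neighbour on chromosome 17 (chr17:34862604-34898265), had 3 to 10 counts in the WT clones, 3 to 253 in P28 and 49 to 1555 in P4M. The P4M clones were all above the WT clones, and C2 rose by 5.44 on the log2 scale in P4M (adjusted p = 0.00429, edgeR), with 2.74 in P28 (adjusted p = 0.0756, edgeR).

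Both soluble inhibitors among the 9 genes were close to the detection limit. Serping1 (ENSMUSG00000023224, chr2:84765387-84775444, minus strand) encodes the C1 inhibitor, which inactivates C1r and C1s. It had 0 counts in all 5 WT clones, 3, 0, 12, 5 and 5 counts in the P28 clones and 3, 10, 32 and 4 counts in the P4M clones. The WT group, with 146578805 counts in all, allows a level of up to 0.0205 CPM (3 counts over the group). The pooled level was 5.58 times that limit in P28 (0.114 CPM from 25 counts) and 12.3 times that limit in P4M (0.253 CPM from 49 counts). It was 3.71 times the limit in P28 without its clone 3 and 5.81 times in P4M without its clone 3. The limit covers the counting error of the WT group only, not that of the cKO counts or the spread between clones. No test was made because the gene did not pass the filter on low counts. Cfi (ENSMUSG00000058952, chr3:129835884-129875332, plus strand), whose product cuts C3b and C4b, had 12 counts in WT clone 2, 1 count in WT clone 3 and 0 counts in the remaining 12 clones. WT clone 2 was also the clone with the most C3, C1ra and C1s1.

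Of the membrane regulators, the values of Cd55 rested on single clones and Cd59a did not pass the test in any comparison with all 14 clones. Cd55 (ENSMUSG00000026399, chr1:130439027-130462744, minus strand) encodes decay-accelerating factor, which takes convertases apart. It stood at 3.65, 1.34, 0.445, 0.341 and 68.3 CPM in the WT clones, at 0.0215, 0.0478, 0.0994, 0.0403 and 2.36 CPM in P28, and at 0.646, 0.546, 0.0395 and 0.0564 CPM in P4M. WT clone 5 alone held 1726 of the counts and P28 clone 5 was the highest cKO clone, so the groups overlapped. Cd55 fell in both cKO groups over all 14 clones, by log2 fold changes of -4.86 (SE 1.77) in P28 and -5.53 (SE 2.03) in P4M (adjusted p = 0.0436 and 0.039, edgeR). Without WT clone 5 the log2 fold changes were -1.51 and -2.17 (adjusted p = 0.382 and 0.235, edgeR), and the calls were lost in 8 and 5 of the 14 fits that left out a clone. The fall in P28 was lost without WT clone 5, each of P28 clones 1 to 4, or P4M clones 1, 2 or 4, and the fall in P4M without WT clone 5 or each of the 4 P4M clones. The fall in P28 was also lost without the low-count filter and with only the groups compared (adjusted p = 0.0817 and 0.0711, edgeR). The fall in P4M was also lost without that filter (adjusted p = 0.0756, edgeR). With limma on TPM neither fall passed (adjusted p = 0.116 and 0.117, limma). Without P28 clone 5 the value in P28 was -8.07 and that of P4M against P28 went from -0.66 to 2.55, the latter with an edgeR adjusted p of 0.38.

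Cd59a (ENSMUSG00000032679, chr2:104095801-104115354, plus strand) encodes CD59, which blocks the last step of the membrane attack complex. It stood at 1.79, 32.3, 3.40, 21.3 and 33 CPM in the WT clones, at 58.1, 34.3, 18.9, 36.5 and 7.66 CPM in P28, and at 2.77, 0.797, 1.5 and 9.53 CPM in P4M. The P28 and WT clones overlapped widely, and of the P4M clones all but clone 4 lay below every P28 clone. Its log2 fold change was 0.76 (SE 0.824) in P28 against WT, -2.33 (SE 0.939) in P4M against WT and -3.09 (SE 0.972) in P4M against P28, with edgeR adjusted p of 0.492, 0.0574 and 0.0683. Leaving out P4M clone 4 moved P4M against WT to -3.43 (adjusted p = 0.019, edgeR), and leaving out WT clones 1 or 3 also took it past the threshold, with an edgeR adjusted p of 0.0233 and 0.0374. P4M against P28 passed without WT clone 1 (-3.07, adjusted p = 0.0372, edgeR). With other tools or samples, P4M against P28 passed with DESeq2, with edgeR on only these groups and with limma on TPM (adjusted p = 0.00376, 0.033 and 0.0305), and P4M against WT passed with DESeq2 (adjusted p = 0.0156). Its paralog Cd59b, at 0 to 3.6 CPM in WT, fell by 4.82 in P4M (adjusted p = 0.0111, edgeR) and had a log2 fold change of -1.89 in P28 (adjusted p = 0.164, edgeR); 3.98% of the 50-base windows of Cd59a occur in Cd59b.

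**Figure D4:**
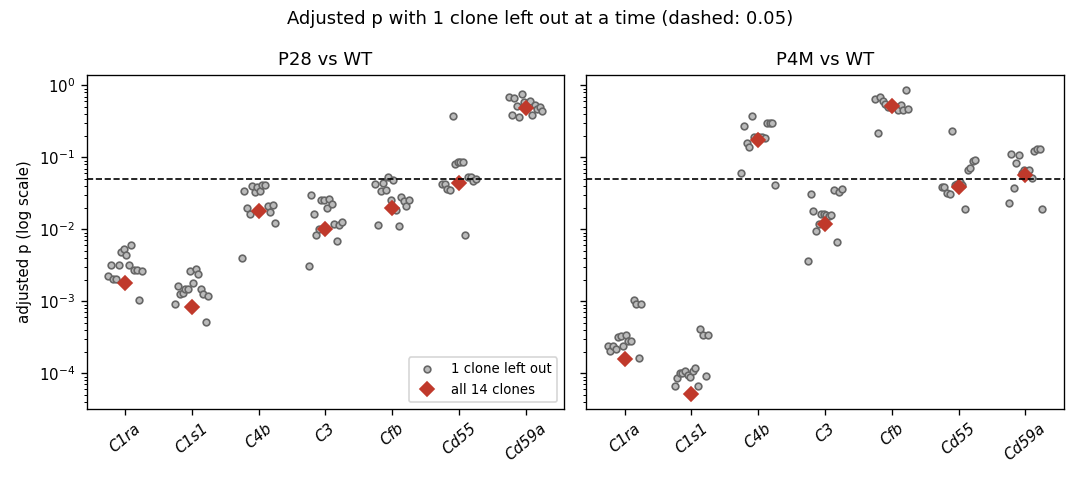
Adjusted p (y axis, log scale) of the 7 tested members in P28 against WT and P4M against WT from edgeR with all 14 clones (red diamonds) and with 1 clone left out at a time (grey points); the dashed line marks 0.05. C1ra, C1s1 and C3 stay below the line in all fits of both panels, while the points of Cd55 fall on both sides of it, up to 0.382.

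The wider pathway was described by a list of 46 other complement genes, of which 41 were in the count table and 19 had enough reads to be tested. In P28 against WT 10 of the 19 fell and 1 rose, beside 19.7% and 19.2% of all genes tested. In P4M against WT 12 fell and 2 rose, beside 23.6% and 22.3%. In P4M against P28 1 rose, beside 3.34% higher and 3.88% lower over all genes. Their median log2 fold changes were -1.25, -1.71 and -0.78, beside the medians near 0 over all genes given above. C1q, the recognition part of the C1 complex, was near the detection limit, and C1qa, C1qb and C1qc had 0 counts in all WT clones and at most 3, 8 and 7 counts in any cKO clone.

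In the lectin pathway, Masp1, a protease related to C1r and C1s, stood at 170.5 to 916.4 CPM in WT, 77.8 to 192.2 CPM in P28 and 16.3 to 69.4 CPM in P4M. Its log2 fold change against WT was -1.59 in P28 and -3.07 in P4M (adjusted p = 0.0209 and 0.000895, edgeR), and its P4M clones did not overlap either other group. Without WT clone 4 the fall in P28 missed the threshold (adjusted p = 0.0663, edgeR), as it did with limma on TPM (adjusted p = 0.0571, limma). Colec10, a collectin, fell in P4M (-4.12, adjusted p = 0.0488, edgeR), with a value of -0.20 in P28. With 1 clone left out, 9 of 14 fits did not call this fall (WT clones 2, 3 or 5, P28 clones 1, 2 or 5, P4M clones 1, 2 or 4), with an edgeR adjusted p up to 0.115. It was also lost with another scaling, without scaling, without the low-count filter, with only the groups compared and with limma on TPM. Of the other 2 lectin pathway genes tested, Colec12 had log2 fold changes of 0.42 and 0.31 and Colec11 of -0.78 and 0.04 against WT, and neither passed (adjusted p from 0.399 to 0.969, edgeR). Of the alternative and terminal pathways, Cfp, the gene of properdin, and C8g, a chain of C8, fell in P4M, by log2 fold changes of -1.46 and -1.82 (adjusted p = 0.00473 and 0.00302, edgeR). Clu, the gene of clusterin, which binds the terminal complex, stood at 27.6 to 693.4 CPM in WT, 8.1 to 67.4 CPM in P28 and 2.25 to 36.9 CPM in P4M, and fell by log2 values of -2.81 and -3.94 (adjusted p = 0.0322 and 0.0107, edgeR). The fall of Clu in P28 was lost without WT clones 2 or 4 or P28 clones 2, 4 or 5, with an edgeR adjusted p up to 0.108.

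The other membrane regulators went both ways. Cr1l, the gene of Crry, the broadly expressed convertase regulator of rodents, stood at 54.1, 62.8, 81.4, 81.8 and 48.2 CPM in WT, at 37, 39.5, 33.7, 27.9 and 34.8 CPM in P28, and at 67.6, 73.6, 51.2 and 55.7 CPM in P4M. Every P28 clone was below every other clone. Cr1l fell by 0.93 in P28 against WT (adjusted p = 0.00116, edgeR), had a value of -0.08 in P4M against WT, and rose by 0.84 from P28 to P4M (adjusted p = 0.0163, edgeR). That rise missed the threshold without P4M clone 2 (adjusted p = 0.0536, edgeR). Csmd1, a large membrane inhibitor, had 1 count in WT clone 1, 72 to 1546 counts in the other WT clones, and at most 8 counts in P28 and 33 in P4M, and fell by log2 values of -8.11 and -5.71 (adjusted p = 0.00129 and 0.00652, edgeR). Cd46, a cofactor for the cleavage of C3b, fell by log2 values of -1.25 and -1.07 (adjusted p = 0.00304 and 0.00912, edgeR). Its fall in P4M missed the threshold with limma on TPM (adjusted p = 0.0947, limma). Of the receptor genes listed, only Itgb2, the beta chain of complement receptors 3 and 4, was tested. It fell by log2 values of -2.03 and -1.71 (adjusted p = 0.00317 and 0.0102, edgeR). Itgam and Itgax, the genes of the alpha chains of these receptors, had 12 and 7 counts over all 14 clones. Susd4, a membrane complement inhibitor, had 1 count in each of 2 WT clones and 0 in the other 3, 4 to 54 counts in P28 and 6 to 19 counts in P4M, and rose in both comparisons (adjusted p = 0.0016 and 0.00647, edgeR).

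**Figure D5:**
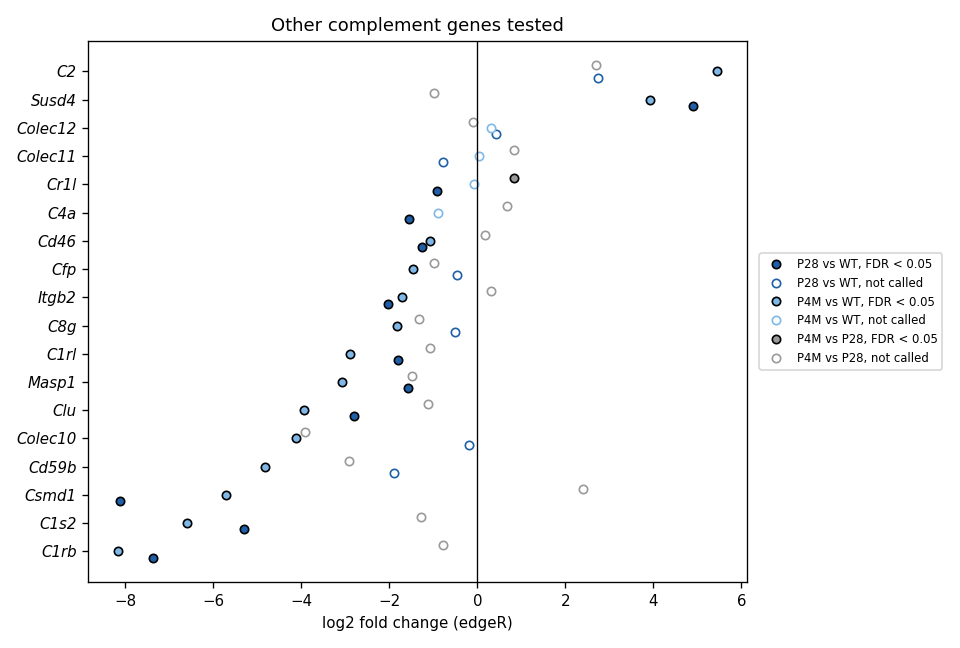
Log2 fold change (x axis, edgeR) of 18 of the 19 other complement genes tested in P28 against WT (dark blue), P4M against WT (light blue) and P4M against P28 (grey), ordered by the value of P4M against WT, with filled points past a false discovery rate of 0.05. Most filled points lie left of 0, with C1rb, C1s2 and Csmd1 lowest; C2 and Susd4 lie on the right, and the value of Susd4, with at most 1 count in a WT clone, depends on the prior count of the fit.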

How the data were processed

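The authors prepared SMART-Seq v4 and Nextera XT libraries of 14 clones (5 WT P23, 5 cKO P28, 4 cKO P4M) and sequenced single-end reads of 50 cycles. By the paper's account, reads were aligned to mm10 with TopHat and Bowtie2, and HTSeq was used, with only reads mapped without ambiguity counted. Whether strand was used is not given in the sources used here. The deposited raw counts, unnormalised, were used for tests; the deposited TPM values, whose program is not given in the sources used here, were used to compare levels between genes and for ratios. The other 4 tables, which hold expected counts (equal to the raw counts), depth-normalised counts, regularised log values and FPKM, were not used. Because the raw counts equal the expected counts, the program behind them is uncertain. Whether reads shared by paralogs were dropped or split is not known.

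Counts were filtered with filterByExpr, scaled by TMM and fitted with edgeR 4.0.16 (quasi-likelihood, robust; R 4.3.3), 1 model of 3 groups over all 14 clones, with Benjamini-Hochberg adjustment over 17358 genes at a false discovery rate of 0.05. CPM use TMM-scaled totals, except the pooled Serping1 levels and their limit, which use unscaled totals. Library totals of 25688946 to 52857424 put 3 counts at 0.117 CPM or less per clone, before scaling. Each SE was derived from the test, as the size of the log2 fold change over the square root of its F statistic. Ratios were compared by exact permutation (scipy 1.17.1). Coordinates are those of GENCODE M21, and promoters those of the RefSeq table. The fit was tested on simulated data. Alternatives were another scaling, other filters, DESeq2 1.42.0, limma 3.58.1 on log2(TPM + 1), fits of only the groups compared, a stricter threshold and leaving out clones. The 9 genes, the other complement genes and the marker lists were chosen with earlier results of these data known. Named genes were the 9 members, Trp53, other complement genes called in at least 1 comparison, the paralogs, and the genes whose centred log2 CPM differed least from a member over the 14 clones (3 for C3, 1 for each other). The C1q genes, Colec11, Colec12, Itgam and Itgax fall outside this rule and were named after their values were seen. Some results are not reported here.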

Additional observations from a re-analysis of the deposited data

Results flagged for a closer look

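In groups of 4 or 5 clones, the highest or lowest clone was compared with the rest by Dixon's ratio of gap to range on log2 CPM, over 21 groups; chance gives about 1 such result in 20 groups. P4M clone 3 stood apart in C1ra (116 CPM, ratio 0.915), and P28 clone 5 stood apart in Cd55 (2.36 CPM, ratio 0.79).

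The effect of the cKO groups against the shared WT clones differed between P4M and P28 by the edgeR test of the difference itself for C1s1 (log2 difference -2.38, lower in P4M) and for Cr1l (log2 difference 0.843, higher in P4M). For C1s1 no P4M clone reached the P28 range, and for Cr1l every P4M clone was above every P28 clone. The C1s1 difference missed the threshold in 5 of the 14 fits that left out a clone, and that of Cr1l missed it without P4M clone 2 (adjusted p = 0.0536, edgeR).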

How the results depend on the processing

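Depth limited Cfi, Serping1, Cfb and Susd4, each at low counts in most clones. No paired analysis was possible because the clone numbers are running numbers within a group and the labels tie no clone of 1 group to a clone of another. DESeq2 gave no adjusted p for Cd55, and under limma on TPM C3 and Cfb did not pass the filter on low values. Leaving out WT clones 2 and 5 together was chosen after seeing the data, as was the ratio of C1s1 to C1ra with its fits.

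For P28 against WT, 6 members changed with all clones; the number was 2 with at least 10 counts in every clone, 2 with limma on TPM, 2 at a false discovery rate of 0.01, and 4 to 6 with 1 clone left out. For P4M against WT it was 4, and 2, 2 and 2 under the same settings, and 3 to 5 with 1 clone left out. The filter of 10 counts removed C3, C4b, Cfb and Cd55 before the test, so that only C1ra, C1s1 and Cd59a were tested there. Over all genes, P28 against WT gave 6750 calls of 17358 tested, 5202 of 12559 at that filter and 6528 of 14933 with limma on TPM. P4M against WT gave 7969, 6095 and 6789 calls of the same numbers tested. With 1 clone left out the calls were 5805 to 7253 and 6799 to 8454. No share over all genes is given for a false discovery rate of 0.01. With limma on TPM, C4b in P28 and Cd55 in both comparisons were tested and missed the threshold. C1ra and C1s1 passed in both comparisons in every fit. For P4M against P28 it was 1, and 3 with DESeq2, 3 with only the groups compared, 3 with limma on TPM, 2 without WT clones 2 and 5, 0 at 0.01, and 0 to 2 with 1 clone left out. Over all genes, that comparison gave 1254 calls, and 2816 with DESeq2, 3051 with only the groups compared and 480 to 2132 with 1 clone left out.

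Of the other complement genes, 11 changed in P28 against WT, with 7 at the stricter filter, 6 with limma and 9 to 13 with 1 clone left out. In P4M against WT 14 changed, with 7 at the stricter filter and 13 to 16 with 1 clone left out. In P4M against P28 1 changed (Cr1l), with 2 without scaling, 2 at the stricter filter, 7 with DESeq2, 3 with only the groups compared, 5 with limma, 2 without WT clones 2 and 5, 0 at 0.01, and 0 to 3 with 1 clone left out. Over all genes, the first 6 of these settings gave 1205 calls of 17358, 1014 of 12559, 2816 of 19854, 3051 of 16672, 1353 of 14933 and 1667 of 17869. Calls over all genes against WT are given above. The number of complement genes tested also differed between settings.

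The sign turned for C4b in P4M against WT without WT clones 2 and 5 (log2 fold change 0.493). In P4M against P28 it turned for C3, from -0.33 to 0.0415 without P28 clone 3 and to 0.078, 0.0326 and 0.012 without P4M clones 1, 3 and 4 (range -2.99 to 0.078 with 1 clone left out), and for Cd55 to 2.55 without P28 clone 5 (range -1.24 to 2.55). None of these values passed the test, and the cause was not tested. With limma on TPM the median over all genes was 0.26, 0.09 and -0.15 in the 3 comparisons, against -0.02, -0.06 and -0.01 with counts.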

Other observations

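The genes whose pattern over the 14 clones was closest to that of a member were found by the mean absolute difference of centred log2 CPM. They were chosen by this likeness, which is a description over clones that share libraries and groups. For C1ra the closest was C1rl in the same cluster, with a mean difference of 0.314, beside a mean deviation of C1ra from its own mean of 1.2. For C1s1 it was Vamp5 (0.342, beside 1.91), for Cd59a Ank3 (0.73, beside 1.72), for Cfb Mc5r (0.555, beside 1.2) and for C4b Ano1 (1.12, beside 2.05). For C3 the closest 3 were Gm19935 (1.0), Rhag (1.09) and Arsi (1.17), beside 2.46.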
